A study of Mus musculus with 18 samples.

Results

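Brown adipocytes that had been transfected with the antisense oligonucleotide LNA1 were compared with and without isoproterenol, a non-selective agonist of the β-adrenergic receptors. The comparison took the 3 stimulated LNA1 libraries against the 3 unstimulated LNA1 libraries, paired by the replicate numbers 2, 3 and 4 that both groups carry. These are 6 of the 18 libraries of the experiment, and the others come from cells given the non-targeting oligonucleotide ctrlA or the second targeting oligonucleotide LNA2. All genes of the count table belong to the comparison, and 14949 of the 54347 genes listed had enough counts to be tested.

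All cells were of the wt1-SAM line, which derives from mouse brown preadipocytes, is immortalised and carries the SAM components for CRISPR activation. No guide RNA is named for these samples. Differentiation of every group was induced with insulin (850 nM), T3 (1 nM), rosiglitazone (0.5 µM), dexamethasone (1 µM), indomethacine (125 µM) and the phosphodiesterase inhibitor IBMX (500 µM), and IBMX was no longer in the later media. On day 4, 500000 cells per well were reverse transfected with 1.4 µl of LNA1 at 10 µM, and harvest was on day 7. The stimulated group (LNA1_iso) received 1 µM isoproterenol for the last 24 h, and the unstimulated group (LNA1_ctrl) was transfected with the same LNA1. What the unstimulated cells received in place of isoproterenol is not stated. All libraries come from a single immortalised line, and nothing says that the replicates were separate cultures, so the p values measure only the spread between these samples.

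In brown adipocytes, noradrenaline or an agonist such as isoproterenol acts on β-adrenergic receptors, whose G protein switches on adenylyl cyclases. The cAMP they make activates protein kinase A, which releases fatty acids from lipid droplets and, through CREB and its partners, induces genes of heat production such as Ucp1. Phosphodiesterases break cAMP down again and close the pathway.

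LNA1 is a gapmer of 16 bases, a locked nucleic acid oligonucleotide that recruits RNase H to the RNA it pairs with. Its sequence and its site in the long non-coding RNA Gm15551 are given because both groups compared here were transfected with it. The site in capitals, flanked by its neighbouring bases, is written as the transcript reads.

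LNA1: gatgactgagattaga
site in Gm15551: ttcctgcTCTAATCTCAGTCATCactcctg

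The full complement of LNA1 was found in 1 transcript of the annotation, at bases 347 to 362 of the 535-base Gm15551 RNA. On the GRCm38 build this is chr3:126667502-126667517 on the minus strand, in exon 2 of 2, and Gm15551 itself (chr3:126667329-126669044) lies antisense within an intron of Camk2d. Gm15551 was close to the limit of detection in these cells, with 12, 3 and 3 counts in unstimulated replicates 2, 3 and 4 and 1, 4 and 1 counts with isoproterenol. Its mean was 0.530 ± 0.424 (SD, n = 3) CPM (counts scaled by TMM to a library size of 1000000) against 0.153 ± 0.120 CPM, and the groups overlapped. An exact two-sided permutation test gave p = 0.2, where 0.1 is the smallest value that 3 against 3 libraries allow. The test could thus not pass at this size and says nothing for or against a change of Gm15551. The 6 ctrlA libraries held only 2 to 14 counts of it. The host gene Camk2d, a subunit of calcium/calmodulin-dependent kinase II, was at 119, 127 and 116 CPM and then at 102, 100 and 112 CPM, a log2 fold change of -0.20 ± 0.07 that did not pass the test (edgeR adjusted p = 0.0824).

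The 6 LNA1 libraries held 9167560 to 14114672 counts and had a count for 22388 to 23375 genes. Replicate 2 stood apart in both groups. Of its counts, 7.44 to 14.3% fell on CT010467.1, a ribosomal RNA gene, and 8.51 to 9.79% on mitochondrial transcripts, while replicates 3 and 4 were at 0.380 to 1.04% and 3.67 to 4.24%. Markers of adipocytes were abundant in every library. Fabp4, the fatty acid carrier of fat cells, was at 7081 to 17680 CPM and Lpl, the lipase that breaks down circulating fat, at 3788 to 4717 CPM. Among brown markers, Elovl3 was at 189 to 335 CPM, but Ucp1 was near 1 CPM before stimulation, and Dio2 and Zic1 had too few counts to be tested. Lhx8 and the white fat hormone gene Lep were at 0 in all 6 libraries. Among lists of 4 to 7 markers each for macrophages and for endothelial, muscle, nerve, lymphoid and liver cells, Cd68 alone was called. The summed macrophage markers were at 11.9 to 15.6 CPM without and 19.6 to 30.3 CPM with isoproterenol, nearly all of it Cd68 (12.4, 11.4 and 14.6 against 25.0, 18.9 and 29.7 CPM), a lysosomal protein, and their part in the results was not tested. The call of Cd68 was lost without replicate 4 (adjusted p = 0.0636). Adgre1, Ptprc, Itgam and Lyz2 had too few counts to be tested. Summed markers of endothelial, muscle, nerve, lymphoid and liver cells were at or below 4.87 CPM in every library, and Myh1, Myh4, Cd4 and Ttr were at 0.

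A gene was called when its edgeR quasi-likelihood test, with the replicate number as a block, gave a Benjamini-Hochberg adjusted p under 0.05 and its log2 fold change exceeded 0.5 in either direction. Isoproterenol changed 753 genes by this rule, 5.04% of those tested. Of these, 433 genes (2.9%) rose and 320 (2.14%) fell. Counts of genes called in the lists below stand against these shares over all genes tested. By the adjusted p alone, 1471 genes (9.84%) passed, 818 higher (5.47%) and 653 lower (4.37%). The response was of moderate size for most genes, with a median log2 fold change of 0.90 among those that rose and -0.75 among those that fell, against 0.01 over all genes tested. An absolute log2 fold change above 1 was reached by 290 genes, 194 higher and 96 lower. The sign was shared by all 3 same-number pairs in 750 of the 753 genes, which the call by a blocked test favours. The stimulated and unstimulated groups did not overlap for 473 of them, and for 11% of all genes tested. Without replicate 2 in any group, 446 genes were called, 419 of them among the 753, and a fit without the replicate block called 105, all of them among the 753. In that fit no list described below had more than 3 genes called in either direction. Genes named below whose call was lost when all libraries of 1 replicate number were left out are given with that number. In bulk RNA such as this, fewer cells that express a gene and less RNA of it per cell cannot be told apart.

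**Figure D1:**
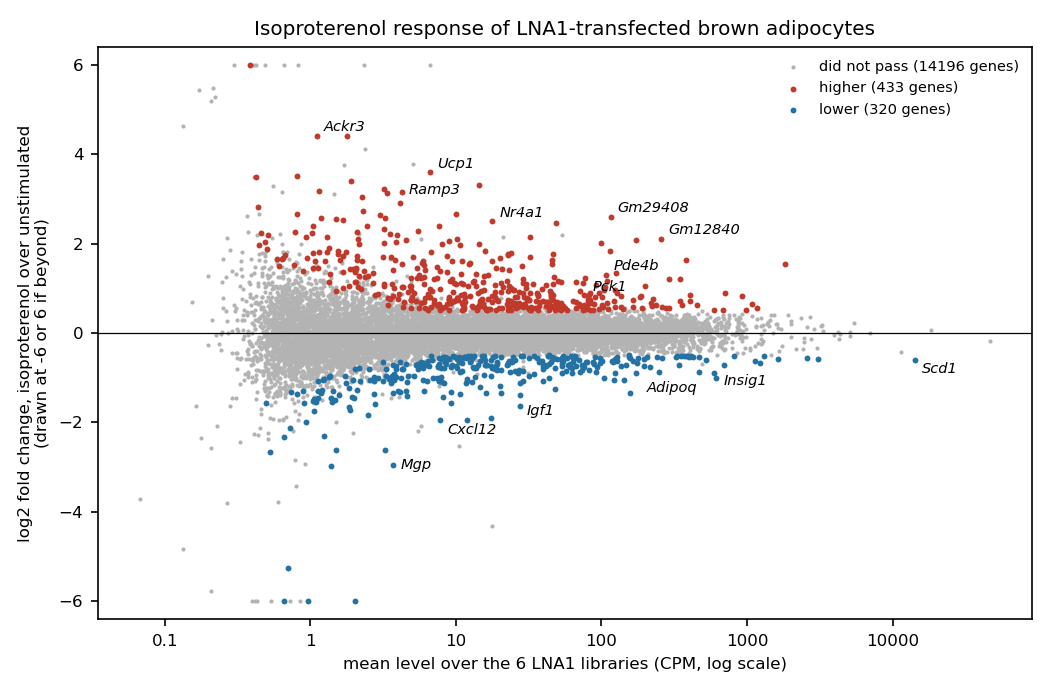
Each point is 1 of the 14949 genes tested, by its mean level over the 6 LNA1 libraries (CPM, log scale) and its log2 fold change with isoproterenol; red and blue points passed the test (433 higher, 320 lower), and points beyond 6 are drawn at the edge. Ucp1, Ramp3 and Nr4a1 rose from low levels, the non-coding Gm12840 rose at about 258 CPM, and Scd1, the most abundant labelled gene, fell.

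Of 15 adrenergic receptors, G protein subunits and receptor regulators tested, 0 rose and 1 fell, with a median log2 fold change of 0.13. This is 6.67% of the list, near the 5.04% of all genes tested. Adrb1 was at 0.317 CPM per kb of exon before and 0.356 CPM per kb after stimulation, and Adrb3, the receptor typical of mature fat cells, at 0.134 and 0.0482 CPM per kb. Neither of them passed the test (Adrb3 log2 fold change -1.45 ± 0.76, adjusted p = 0.281). The gene that fell was Adra1d, an α1 receptor, from 6.54, 22.9 and 16.7 to 4.35, 14.5 and 11.5 CPM (-0.60 ± 0.15, adjusted p = 0.015). Its groups overlapped, and the call was lost without replicate 2 (adjusted p = 0.11) or without replicate 4 (adjusted p = 0.109). The arrestin gene Arrb1, which uncouples receptors, passed the adjusted p but not the fold limit (0.50 ± 0.09, adjusted p = 0.00212).

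Adenylyl cyclase genes were called in both directions. Adcy3 stood at 3.82, 2.84 and 6.0 CPM in unstimulated replicates 2, 3 and 4 and at 10.7, 23.9 and 16.9 CPM with isoproterenol, 3.92-fold higher (log2 fold change 1.97 ± 0.27, adjusted p = 0.000123). All 3 stimulated libraries were above all 3 unstimulated ones. Adcy5 fell from 7.55, 11.4 and 11.9 to 3.90, 6.77 and 4.05 CPM (-1.07 ± 0.24, adjusted p = 0.00719), and without replicate 4 this call was lost (-0.82, adjusted p = 0.135). Adcy6, the most abundant of the 3, was at 145 to 346 CPM and then at 116 to 297 CPM (-0.29 ± 0.08, adjusted p = 0.0246), under the fold limit.

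Among 10 phosphodiesterase genes tested, 3 rose and 0 fell. Pde4b, a cAMP-specific enzyme, rose from 96.2, 47.2 and 47.5 to 202, 121 and 136 CPM (1.31 ± 0.09, adjusted p = 1.45e-07). Pde4d, its close relative, rose from 48.4, 60.4 and 66.9 to 98.7, 131 and 141 CPM (1.08 ± 0.08, adjusted p = 3.87e-07). Pde10a, which hydrolyses both cAMP and cGMP, rose from 2.04, 1.95 and 1.53 to 12.7, 7.49 and 6.99 CPM (2.28 ± 0.20, adjusted p = 1.42e-06). The groups did not overlap for any of the 3. Pde3b, the phosphodiesterase through which insulin opposes lipolysis, was at 2.34 to 5.86 and 1.67 to 6.57 CPM and did not pass (-0.09 ± 0.20). Of 13 genes for protein kinase A subunits, inhibitors and anchors, 0 were called, against 5.04% of all genes tested, with a median of -0.02. The regulatory subunit gene Prkar1a alone passed by adjusted p, under the fold limit (0.28 ± 0.06, adjusted p = 0.00705), and the catalytic subunit gene Prkaca was at -0.06 ± 0.07 (adjusted p = 0.721).

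Of 22 transcription regulators that cAMP is known to act on, 5 rose and 0 fell (median 0.20). The orphan receptor gene Nr4a1, an immediate target of CREB, rose 5.67-fold, from 3.06, 6.39 and 6.61 to 19.7, 37.6 and 33.4 CPM (2.50 ± 0.12, adjusted p = 3.91e-09). Its relative Nr4a3 rose from 0.509, 1.33 and 0.509 to 2.13, 6.84 and 6.75 CPM (2.65 ± 0.40, adjusted p = 0.000371). In both genes the stimulated libraries all lay above the unstimulated ones. Sik1, a kinase that restrains the CREB coactivators, rose within each pair, from 27.7 to 59.2, from 52.4 to 113 and from 60.4 to 133 CPM (1.12 ± 0.09, adjusted p = 6.11e-07). The AP-1 subunit genes Junb (1.22 ± 0.13, adjusted p = 1.59e-05) and Fosl1 (0.97 ± 0.11, adjusted p = 3.87e-05) also rose. Other members of the same families were not called. Fos was at -0.50 ± 0.15 (adjusted p = 0.0413), just inside the fold limit, Nr4a2 at 0.81 ± 0.29 (adjusted p = 0.0935) and Crem at 0.29 ± 0.15 (adjusted p = 0.278). Without replicate 2 in any group the list had 5 genes higher, and without the replicate block 3.

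The 250 bases upstream of the RefSeq start site (GRCm38.p6, 5′ to 3′ on the gene's strand) are shown for Nr4a1 and Nr4a3, which had the largest rises among these regulators, for Ucp1, and for Pck1, a metabolic gene that is a textbook target of CREB and is described further on. Capitals mark TGACG and its reverse complement CGTCA, the core of the cAMP response element.

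Nr4a1, chr15:101266596-101266845, plus strand: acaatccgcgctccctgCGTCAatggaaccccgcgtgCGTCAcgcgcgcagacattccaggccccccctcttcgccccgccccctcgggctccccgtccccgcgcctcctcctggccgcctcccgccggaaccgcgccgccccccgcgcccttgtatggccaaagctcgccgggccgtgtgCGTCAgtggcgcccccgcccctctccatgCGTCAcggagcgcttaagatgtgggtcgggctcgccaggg
Nr4a3, chr4:48045055-48045304, plus strand: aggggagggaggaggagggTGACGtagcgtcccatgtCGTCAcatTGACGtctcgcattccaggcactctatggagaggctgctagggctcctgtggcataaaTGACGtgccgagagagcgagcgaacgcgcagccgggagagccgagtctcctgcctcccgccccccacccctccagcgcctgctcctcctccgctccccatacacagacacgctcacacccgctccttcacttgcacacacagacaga
Ucp1, chr8:83290098-83290347, plus strand: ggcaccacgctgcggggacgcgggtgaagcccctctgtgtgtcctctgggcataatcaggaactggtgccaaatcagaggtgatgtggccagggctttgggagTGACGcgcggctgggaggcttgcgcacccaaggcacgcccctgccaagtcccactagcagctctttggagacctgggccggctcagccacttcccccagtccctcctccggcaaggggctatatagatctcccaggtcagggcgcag
Pck1, chr2:173152823-173153072, plus strand: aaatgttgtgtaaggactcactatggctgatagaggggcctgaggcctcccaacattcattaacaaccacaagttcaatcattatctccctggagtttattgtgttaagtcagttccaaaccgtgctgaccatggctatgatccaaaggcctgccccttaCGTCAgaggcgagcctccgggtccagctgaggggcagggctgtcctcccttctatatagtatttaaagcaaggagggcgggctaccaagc

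Nr4a1 and Nr4a3 held 4 such cores each in this window, and Ucp1 and Pck1 held 1 each, 147 and 90 bases before the start. The same was looked up for 15 other genes that rose. Ppargc1a, Junb and 1 start of Pde4b had 1 each and 1 start of Ptprn had 2, while the other starts of Pde4b and Ptprn had 0. Ackr3, Adcy3, Gjb5, Gk, Gm15501, Hgf, Pde10a, Pde4d, Plekhg4, Ramp3 and Slpi had 0. RefSeq start windows of 300 bases, 250 before and 50 after the start, were matched for 10449 of the 14949 genes tested, and TGACG on either strand was in 30.2% of 13312 windows. It was in 24.6% of 411 windows of genes that rose and in 20.3% of 300 windows of genes that fell. At least 3 cores were in 2.17% of all windows, 1.46% of those of genes that rose and 0% of those of genes that fell. The full element TGACGTCA, which contains the core on both strands, was in 2.94% of all windows, 2.19% of those of genes that rose and 1% of those of genes that fell. These matches are a description of letters and no test was made.

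Genes of heat production rose, in part. Of 12 brown adipocyte markers and thermogenic effectors tested, 5 rose (41.7%) and 0 fell, with a median of 0.30. Ucp1, the uncoupling protein that lets protons back into the mitochondrial matrix, was at 1.27, 0.621 and 1.12 CPM in unstimulated replicates 2, 3 and 4. With isoproterenol it was at 10.5, 12.7 and 13.7 CPM, 12.1-fold higher (3.59 ± 0.26, adjusted p = 2.42e-07). Cidea, a lipid droplet protein of brown fat, rose from 8.23, 6.48 and 9.56 to 14.1, 14.7 and 25.4 CPM (1.15 ± 0.18, adjusted p = 0.000531). For both genes the groups were apart, but the call of Cidea was lost without replicate 4 (1.00, adjusted p = 0.0555). The other genes called rose less. Kcnk3, a potassium channel of brown fat, was at 0.54 ± 0.09 (adjusted p = 0.000637), the glycerol kinase gene Gk at 0.59 ± 0.16 (adjusted p = 0.0278) and Cpt1b, the gate of fatty acids into mitochondria, at 0.53 ± 0.12 (adjusted p = 0.00658). These 3 calls were lost without replicate 4, with adjusted p = 0.0502 for Kcnk3, 0.201 for Gk and 0.0646 for Cpt1b, and that of Gk also without replicate 2 (adjusted p = 0.274). Elovl3, a fatty acid elongase of cold-exposed fat, passed by adjusted p but not by fold (0.39 ± 0.09, adjusted p = 0.0134).

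Of 12 thermogenic transcription regulators, 2 rose and 0 fell (16.7%, against 5.04% of all genes tested, median 0.07). Ppargc1a, the coactivator of mitochondrial genes, rose from 58.7, 48.6 and 45 to 83.1, 70.8 and 92.0 CPM (0.69 ± 0.13, adjusted p = 0.00171). Zfp516, a zinc finger activator of Ucp1, rose from 46.5, 73.7 and 76.0 to 76.9, 132 and 140 CPM (0.82 ± 0.08, adjusted p = 6.15e-06). The groups did not overlap for either. Irf4, a partner of Ppargc1a, stood at 0.64 ± 0.20 (adjusted p = 0.0506), and Prdm16, a determinant of brown identity, at -0.39 ± 0.20 (adjusted p = 0.251). Of 39 nuclear genes of the respiratory chain and ATP synthase, 0 were called, with a median of -0.003 and all values between -0.20 and 0.16. Of 13 transcripts of the mitochondrial genome 0 were called (median -0.04), against 5.04% of all genes tested. Of 10 genes of creatine and calcium cycling, only Alpl, the alkaline phosphatase of phosphocreatine turnover, was called (0.65 ± 0.16, adjusted p = 0.0154), and it was lost without replicate 3 or 4 (adjusted p = 0.151 and 0.0572). The call is 10% of the list, against 5.04% of all genes tested.

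**Figure D2:**
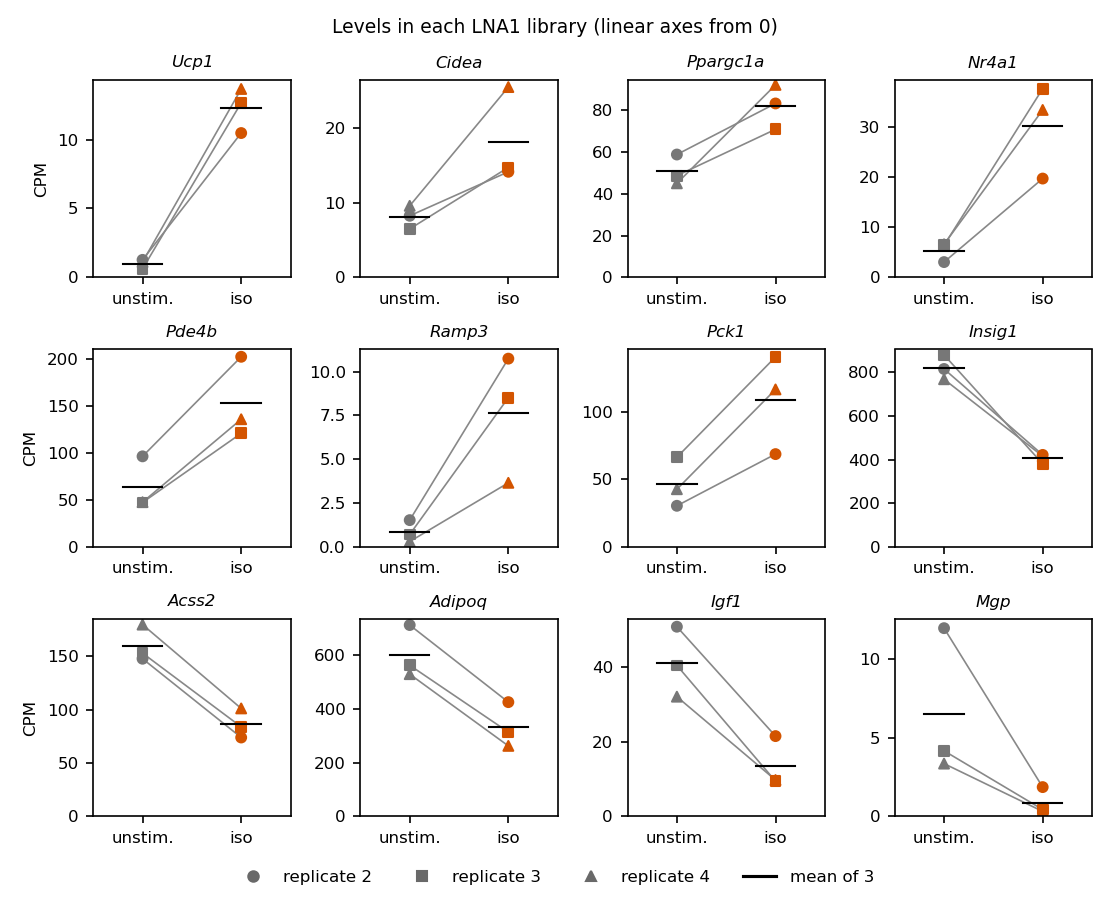
Levels of 12 genes in the 6 LNA1 libraries (CPM, linear axes from 0), with grey symbols for unstimulated and orange for isoproterenol, lines joining the libraries of 1 replicate number and black bars for the mean of 3. Ucp1 is at or below 1.27 CPM without and at or above 10.5 CPM with isoproterenol, and Insig1 is between 768 and 880 CPM without and between 381 and 422 CPM with it.

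Genes of lipid breakdown gave both directions. Of 17 genes of lipolysis and the lipid droplet, 3 rose and 2 fell. Plin5, a droplet coat protein that ties droplets to mitochondria, rose from 7.98, 8.34 and 10.5 to 17.2, 19.8 and 18.2 CPM (1.05 ± 0.15, adjusted p = 0.000198). Hilpda, an inhibitor of the triglyceride lipase, rose by 0.57 ± 0.09 (adjusted p = 0.000752), and without replicate 3 it was at 0.49, under the fold limit. G0s2, another inhibitor of that lipase, fell from 555, 461 and 410 to 385, 344 and 259 CPM (-0.54 ± 0.11, adjusted p = 0.0053). The hormone-sensitive lipase gene Lipe fell from 613, 1137 and 1119.5 to 403, 838 and 806 CPM (-0.51 ± 0.09, adjusted p = 0.00117), which lies at the fold limit, and its call was lost without replicate 2 (-0.47, adjusted p = 0.058). The call of G0s2 was lost without replicate 2 (adjusted p = 0.0998) or replicate 4 (adjusted p = 0.11). The lipase gene Pnpla2 was at -0.34 ± 0.09 (adjusted p = 0.0186).

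Genes that make fatty acids fell in larger number than they rose. Of 15 genes of de novo lipogenesis, 7 fell and 1 rose, and 2 of the 15 had a positive log2 fold change (median -0.41). Acss2, which makes acetyl-CoA from acetate, fell from 148, 153 and 180 to 73.9, 83.9 and 101 CPM (-0.90 ± 0.08, adjusted p = 2.08e-06), with no overlap. Fasn, the fatty acid synthase, fell within each pair, from 345 to 192, 1123 to 782 and 1097 to 628 CPM (-0.73 ± 0.11, adjusted p = 0.000491). Its groups overlapped because replicate 2 was low in both. The stearoyl-CoA desaturase gene Scd1 was among the most abundant transcripts, at 14082, 17270 and 19649 CPM against 7943, 11812 and 14703 CPM (-0.60 ± 0.11, adjusted p = 0.00191), and without replicate 2 it was at -0.50 and no longer called. Scd2 (-0.59 ± 0.09), the citrate carrier gene Slc25a1 (-0.57 ± 0.08), Acly (-0.53 ± 0.10) and Thrsp (-0.63 ± 0.08) completed the genes called lower, and Acly lost its call without replicate 2 (adjusted p = 0.0585). The lipogenic regulator gene Srebf1 was at -0.28 ± 0.10 (adjusted p = 0.0999). The gene that rose was Pck1, the phosphoenolpyruvate carboxykinase that in fat cells supplies glycerol for re-esterification, from 30.4, 66.3 and 42.6 to 68.6, 140 and 116 CPM (1.23 ± 0.10, adjusted p = 9.37e-07). Without replicate 2, 5 genes of the list were called lower and 1 higher, and without the replicate block 1 lower and 0 higher, with a median of -0.41.

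Of 21 genes of fatty acid uptake and triglyceride synthesis, 1 rose and 3 fell. Those that fell were Fabp5, Slc27a1 and Acsl1, which carry, import and activate fatty acids (-0.62 ± 0.10, -0.64 ± 0.12 and -0.55 ± 0.07). Slc27a1 lost its call without replicate 4 (adjusted p = 0.075). In fatty acid oxidation 2 of 25 rose and 1 fell, a share of 12% against 5.04% of all genes tested. Pdk4, the kinase that spares glucose by blocking pyruvate dehydrogenase, rose from 145, 114 and 109 to 239, 159 and 220 CPM (0.74 ± 0.13, adjusted p = 0.0012; without replicate 2, adjusted p = 0.0542). The thioesterase gene Acot2 fell (-0.57 ± 0.08, adjusted p = 0.000141). In glucose uptake and glycolysis 2 of 28 rose and 0 fell, a share of 7.14% against 5.04% of all genes tested. They were Ldhb, a lactate dehydrogenase subunit (0.90 ± 0.12, adjusted p = 0.000102), and Hk1, a hexokinase (0.55 ± 0.11, adjusted p = 0.00397). Hk1 lost its call without replicate 2 (adjusted p = 0.11) or 3, where it was at 0.50 and under the fold limit.

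Many sterol genes fell. Of 21 genes of cholesterol synthesis, uptake and efflux, 8 fell and 0 rose (38.1% called), 4 had a positive log2 fold change, and the median was -0.43. By adjusted p alone 14 were lower and 1 was higher. Insig1, the protein that holds SREBP in the endoplasmic reticulum, was at 815, 880 and 768 CPM and then at 422, 381 and 416 CPM, 2.02-fold lower (-1.01 ± 0.07, adjusted p = 1.45e-07). The libraries of each group were close to each other and the groups were far apart. Enzymes that fell were Dhcr7 (-0.84 ± 0.10), Fdps (-0.76 ± 0.07), Mvd (-0.75 ± 0.12), Fdft1 (-0.65 ± 0.06) and Cyp51 (-0.60 ± 0.09). The lipoprotein receptor gene Scarb1 (-0.72 ± 0.07) fell as well. The regulator gene Srebf2 was at 0.02 ± 0.08 (adjusted p = 0.91). Without replicate 2 the list had 7 genes lower and 0 higher, and without the replicate block 1 lower and 0 higher, with a median of -0.43.

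Common markers of adipocytes fell in part. Of 12 pan-adipocyte markers, 5 fell and 0 rose (median -0.41). The adiponectin gene Adipoq fell from 711, 561 and 528 to 424, 313 and 262 CPM (-0.87 ± 0.08, adjusted p = 2.89e-06), and Cfd, the adipsin gene, from 232, 182 and 159 to 134, 73.2 and 74.5 CPM (-1.06 ± 0.13, adjusted p = 4.83e-05). Neither pair of groups overlapped. Aqp7, the glycerol channel of fat cells, fell as well (-0.69 ± 0.07, adjusted p = 6.81e-06), and Lipe and Acsl1 are the other 2. The regulators of the adipocyte state did not pass, with Pparg at -0.04 ± 0.06 (adjusted p = 0.806) and Cebpa at -0.08 ± 0.08 (adjusted p = 0.615). Fabp4 was lower by adjusted p only (-0.42 ± 0.09, adjusted p = 0.00674). Of 19 adipogenic transcription factors 2 rose, Cebpb (0.71 ± 0.14, adjusted p = 0.00261) and Cebpd (0.73 ± 0.14, adjusted p = 0.00197), which act early in adipogenesis and are known to respond to cAMP. The 2 are 10.5% of the list, against 5.04% of all genes tested. Cebpb lost its call without replicate 4 (adjusted p = 0.0846).

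Among 18 adipokines, batokines and angiogenic factors 4 rose and 2 fell. Angpt2, a vessel-destabilising ligand, rose from 4.67, 2.40 and 2.85 to 13.8, 6.55 and 6.44 CPM (1.41 ± 0.16, adjusted p = 3.42e-05). Metrnl, a secreted protein of fat and muscle, rose from 10.8, 12.2 and 15.3 to 18.4, 25.5 and 23.5 CPM (0.82 ± 0.12, adjusted p = 0.000299), and Fgf21, a metabolic hormone gene, by 0.64 ± 0.11 (adjusted p = 0.00124). Il6, a cytokine gene, was called higher (1.46 ± 0.38, adjusted p = 0.0222) but lost the call without replicate 2, 3 or 4 (adjusted p = 0.129, 0.053 and 0.144). Nampt, an enzyme of NAD synthesis that is also secreted, fell with Adipoq (-0.52 ± 0.10, adjusted p = 0.00266). Nampt lost its call without replicate 2 (adjusted p = 0.105) or 3, where it was at -0.43. In the insulin and IGF list 2 of 14 fell, a share of 14.3% against 5.04% of all genes tested. Igf1, the growth factor gene, fell 3.12-fold, from 50.9, 40.5 and 32.1 to 21.6, 9.46 and 9.77 CPM (-1.64 ± 0.19, adjusted p = 2.59e-05). Pik3r1, the regulatory subunit of PI3 kinase, fell from 198, 246 and 203 to 124, 157 and 129 CPM (-0.66 ± 0.09, adjusted p = 9.04e-05). Neither gene overlapped between groups.

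Inflammatory and plasma protein genes had members in both directions. Of 21 genes of the NF-κB, cytokine and chemokine list 4 rose and 2 fell, and of 18 acute-phase and complement genes 3 rose and 4 fell. Ptgs2, the inducible cyclooxygenase, rose from 8.74, 5.50 and 4.27 to 28.3, 13.7 and 13.2 CPM (1.54 ± 0.14, adjusted p = 2.13e-06). Cxcl12, the ligand of CXCR4, fell from 28.1, 5.50 and 4.58 to 5.24, 2.04 and 1.43 CPM (-1.95 ± 0.21, adjusted p = 1.69e-05). Each pair fell, while the groups overlapped because replicate 2 was high in both. The ceruloplasmin gene Cp, a copper-bound ferroxidase, fell from 20.7, 13.4 and 7.73 to 6.48, 4.00 and 3.34 CPM (-1.57 ± 0.14, adjusted p = 1.87e-06). Haptoglobin (Hp, -0.88 ± 0.11), complement C3 (-0.88 ± 0.12) and Serpina3c (-1.43 ± 0.32) fell and the serum amyloid gene Saa3 rose (0.91 ± 0.24, adjusted p = 0.0248), the last losing its call without replicate 2, 3 or 4 (adjusted p = 0.115, 0.123 and 0.178). That of Serpina3c was lost without replicate 2 or 3 (adjusted p = 0.197 and 0.0805). Without replicate 2 in any group, the NF-κB list had 1 gene higher and 1 lower, and the acute-phase list 1 higher and 3 lower. Without replicate 3 the acute-phase list had 0 higher and 3 lower. Of 28 interferon-stimulated and antigen presentation genes 2 fell, a share of 7.14% against 5.04% of all genes tested. Ifi27l2a was among them (-1.33 ± 0.20, adjusted p = 0.000397).

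In the matrix list 6 of 42 genes rose and 7 fell. The number called lower was 4 without replicate 2 and 2 without replicate 4. Mgp, an inhibitor of calcification, fell 7.69-fold, from 12.0, 4.17 and 3.36 to 1.86, 0.436 and 0.318 CPM (-2.94 ± 0.23, adjusted p = 6.87e-07). All stimulated libraries were below all unstimulated ones. Adamts4, a protease of proteoglycans, rose from 3.73, 6.65 and 6.81 to 13.4, 28.9 and 26.5 CPM (1.98 ± 0.14, adjusted p = 2.71e-07). Spp1, the secreted phosphoprotein osteopontin, rose within each pair, from 310 to 789, 159 to 373 and 144 to 292 CPM (1.21 ± 0.09, adjusted p = 2.59e-07). The inhibitors of metalloproteinases differed from each other, Timp1 (1.16 ± 0.18) and Timp2 (0.69 ± 0.09) being higher and Timp4 lower (-1.39 ± 0.28; without replicate 2 or 4, adjusted p = 0.172 and 0.105). Fibronectin (Fn1, 0.67 ± 0.13) and Fbln2 (0.72 ± 0.12) rose, and Postn (-0.74 ± 0.15) and the collagen gene Col1a2 (-0.58 ± 0.13) fell, the latter pair losing their calls without replicate 4 (adjusted p = 0.0821 and 0.0611). Among 14 progenitor markers Ly6a, the Sca-1 antigen, rose from 19.3, 5.68 and 5.80 to 63.3, 28.1 and 13.9 CPM (1.77 ± 0.22, adjusted p = 6.25e-05) and Cd24a rose (0.78 ± 0.11), while Acta2, smooth muscle actin, fell (-1.02 ± 0.18, adjusted p = 0.00161; without replicate 2, adjusted p = 0.0822).

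In TGF-β, activin and BMP signalling 8 of 23 genes rose and 0 fell (median 0.34). The list mixes ligands, inhibitors and targets. Inhba, the activin subunit, was at 0.71 ± 0.14, and its antagonists Fst and Fstl3 were at 0.70 ± 0.17 and 0.53 ± 0.10. The BMP antagonist gene Grem1 (0.67 ± 0.15), Fstl1 (0.56 ± 0.13), the inhibitory Smad7 (0.60 ± 0.17) and the BMP target genes Id1 (0.51 ± 0.13) and Id2 (0.96 ± 0.13, adjusted p = 0.000136) rose too. Without replicate 2 in any group 2 genes of the list were called higher, and without the replicate block 0. Fstl3 and Id2 were the 2 that were called without replicate 2, but Fstl3 lost its call without any 1 of 3 single libraries (unstimulated replicate 2, stimulated replicate 3 or stimulated replicate 4), where it was at 0.48 to 0.50 and under the fold limit. Without replicate 3, Fstl1 (adjusted p = 0.0655) and Id1 (0.41, under the fold limit) lost their calls, and without replicate 4, Inhba (adjusted p = 0.0825), Fst (0.22), Grem1 (0.0644) and Smad7 (0.177) did.

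Among the remaining lists, 1 of 18 clock genes rose and 1 fell, a share of 11.1% against 5.04% of all genes tested. Nr1d1, a repressor of the clock loop, was at 12.0, 21.4 and 23.7 and then at 22.1, 31.4 and 46.5 CPM (0.80 ± 0.11, adjusted p = 0.000193), and Per3 was lower (-0.71 ± 0.10, adjusted p = 0.000176). In the antioxidant list 3 of 20 rose and 1 fell. Gclc, the rate-limiting enzyme of glutathione synthesis, rose from 86.5, 78.2 and 85.9 to 162, 157 and 170 CPM (0.97 ± 0.08, adjusted p = 1.13e-06), while the cystine transporter gene Slc7a11 fell (-0.69 ± 0.12). The metallothionein genes Mt1 (0.56 ± 0.14) and Mt2 (0.51 ± 0.11) were called higher and lost the call without replicate 2 (adjusted p = 0.171 and 0.109) or replicate 3, where they were at 0.47 and 0.39. Mt1 lost it without replicate 4 as well (adjusted p = 0.0741). No gene was called in a further 4 lists, against 5.04% of all genes tested. They held 19 genes of ER stress, 19 p53 targets, 22 cell cycle genes and 16 glycogen genes. Their medians were -0.17, -0.03, 0.01 and -0.15. In lists of this size, 0 called is near the share over all genes. Without replicate 3 in any group the cell cycle and glycogen lists had 1 gene lower each, and without replicate 4 the ER stress and glycogen lists did.

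**Figure D3:**
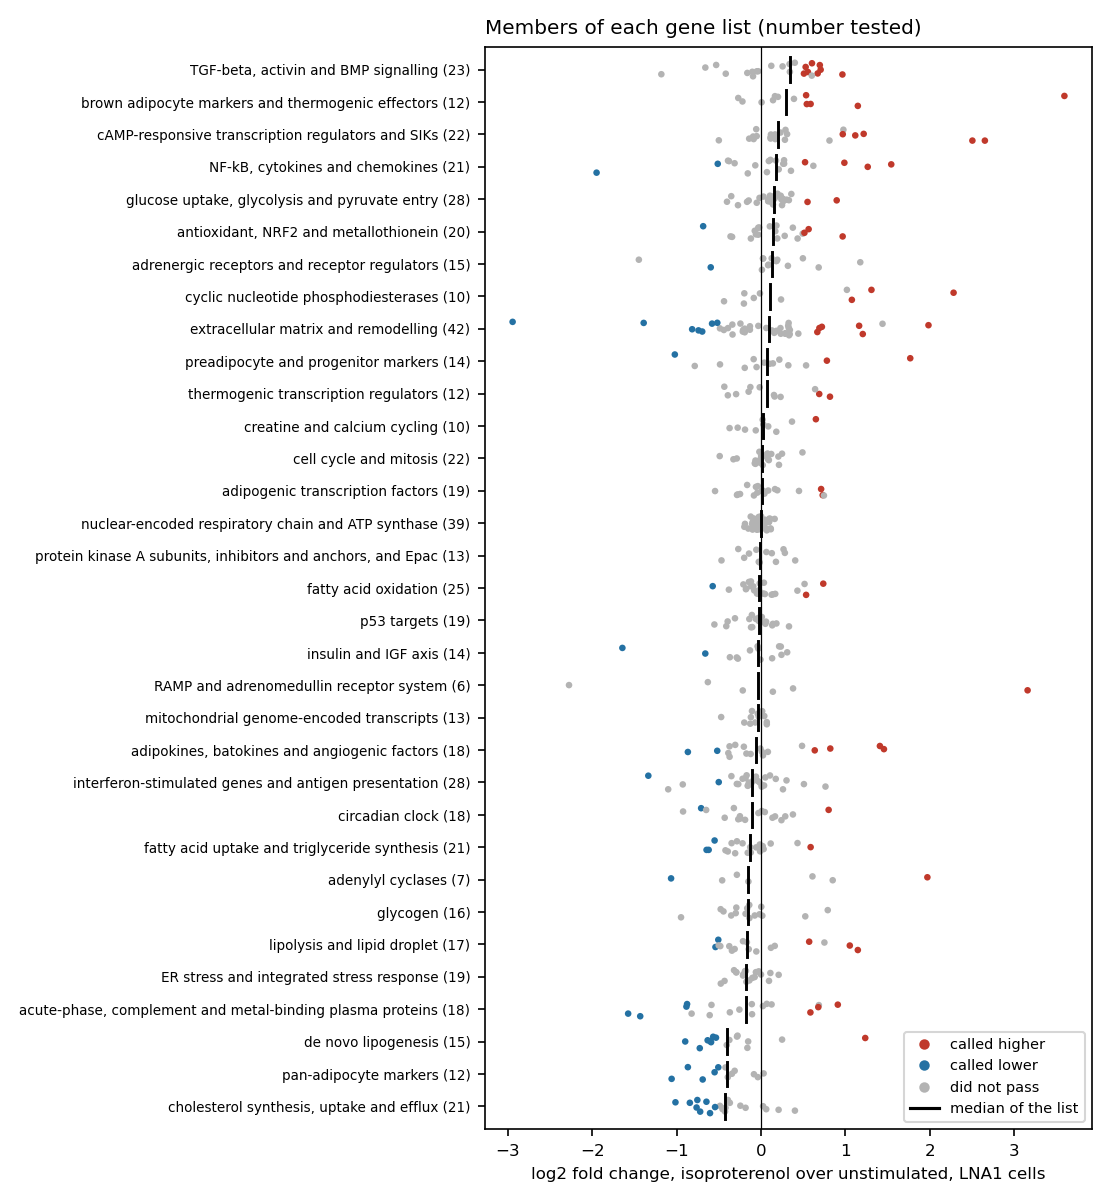
Log2 fold changes with isoproterenol of the tested members of 33 gene lists (number tested in brackets), ordered by the median, which is drawn as a black bar; red and blue members passed the test. The cholesterol, adipocyte and lipogenesis lists lie lowest, with medians of -0.43, -0.41 and -0.41, and the 39 respiratory chain genes lie between -0.20 and 0.16.

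Ramp3, which turns the calcitonin receptor-like receptor into an adrenomedullin receptor, rose from 1.53, 0.710 and 0.305 to 10.7, 8.51 and 3.65 CPM, 8.93-fold (3.16 ± 0.30, adjusted p = 3e-06). Of the 6 genes of its list that were tested it alone was called; its partner gene Calcrl was at -0.63 ± 0.26 (adjusted p = 0.152) and Ramp2 at -2.27 ± 0.79 (adjusted p = 0.086). Ackr3, the scavenging receptor for Cxcl12, had 3 counts in the unstimulated libraries together and 76 in the stimulated ones, a ratio of normalised counts of 22.2 (95% exact interval 7.3 to 110, counting error only; 4.42 ± 0.73, adjusted p = 0.000741). Its call was lost without replicate 2 (adjusted p = 0.0757). Hgf, hepatocyte growth factor, was at 0.340, 0.0887 and 0.509 and then at 6.48, 2.11 and 1.91 CPM (3.41 ± 0.48), and was likewise not called without replicate 2 (adjusted p = 0.0671).

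Ptprn, a protein of dense-core vesicles, rose from 0.340, 0.532 and 0.915 to 2.48, 8.29 and 6.59 CPM (3.23 ± 0.27). The connexin gene Gjb5 rose from 0.849, 0.710 and 0.509 to 7.81, 5.60 and 4.77 CPM (3.14 ± 0.28), and Cd93, a receptor best known from endothelium, from 1.36, 0.621 and 1.02 to 8.07, 7.06 and 6.67 CPM (2.91 ± 0.26). The groups were apart for all of these. Slpi (2.73 ± 0.39), Plekhg4 (2.66 ± 0.21), Arl14epl (3.03 ± 0.34) and the non-coding Gm8016 (4.41 ± 0.42) also belonged to the 15 largest rises, with Gm15501 (3.30 ± 0.71) and Gm49391 (3.18 ± 0.91). Gm15501 lost its call without replicate 4 (adjusted p = 0.0948), and Gm49391, which shares exons with Ctla2a and Ctla2b, without replicate 2, 3 or 4 (adjusted p = 0.173, 0.0655 and 0.133).

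Among the largest falls were those of Mgp and Cxcl12, given above, Car3 and Sult1a1. Car3, a carbonic anhydrase of fat and muscle, fell from 32.9, 15.3 and 7.83 to 11.1, 2.18 and 2.30 CPM (-1.95 ± 0.24, adjusted p = 5.48e-05), with overlap between groups. Sult1a1, a phenol sulphotransferase, fell from 45.7, 22.3 and 16.2 to 8.43, 7.13 and 5.64 CPM (-1.90 ± 0.16, adjusted p = 1.12e-06), without overlap. The pseudogene Pgk1-rs7 was at 6.37, 2.13 and 3.66 CPM and at 0 in all stimulated libraries, at least 15.2-fold lower when the floor of 3 counts per library is put in place of 0. It shares sequence with Pgk1, and the counts of such copies are uncertain. Gm28042 (-2.98 ± 0.87) and Xntrpc (-2.62 ± 0.70) share exons with their neighbours. These 2 lost their calls without replicate 2 (adjusted p = 0.241 and 0.278) and without replicate 4 (0.297 and 0.122). The Wnt antagonist gene Sfrp5 (-2.30 ± 0.58), Gm27316 (-2.63 ± 0.64), the receptor gene Tlr8 (-1.74 ± 0.42), Smkr-ps (-1.71 ± 0.43) and the matrix gene Ogn (-1.66 ± 0.36) were called lower with all libraries but not without replicate 2 (adjusted p = 0.199, 0.0858, 0.158, 0.115 and 0.179) and not without replicate 4 (0.085, 0.117, 0.112, 0.0584 and 0.0701), and Smkr-ps not without replicate 3 either (0.156). The call was lost without replicate 2 in the case of the enkephalin gene Penk (-1.59 ± 0.34; adjusted p = 0.229), whereas Ptprv (-1.83 ± 0.28) was called without replicate 2, 3 or 4 as well.

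Of the 753 genes called, 667 were protein coding and 11 pseudogenes, and 74 of 1862 non-coding genes tested were called, 38 higher and 36 lower, a share of 3.97% against 5.04% of all genes tested. The most abundant was the lincRNA AC160336.1 (chr14:44544055-44637201), which rose from 867, 873 and 1085 to 2381, 2770 and 3040 CPM (1.54, adjusted p = 2.96e-09). Gm20186 rose from 171, 182 and 202 to 497, 612 and 613 CPM (1.63, adjusted p = 2.09e-08), Gm12840 from 91.4, 97.0 and 101 to 339, 475 and 443 CPM (2.11, adjusted p = 1.75e-08) and Gm29408 from 31.1, 35.5 and 30.8 to 152, 232 and 210 CPM (2.60 ± 0.12, adjusted p = 2.07e-09). The groups of all 4 were far apart. Lncbate10, a lincRNA of brown fat, rose from 0.594, 0.177 and 0.712 to 2.31, 2.04 and 4.29 CPM (2.52 ± 0.40, adjusted p = 0.000497). Of the 74 genes, 44 had a protein coding gene within 10 kb, and this neighbour was itself called for 7 (15.9%), against 5.13% of the 1442 tested non-coding genes with such a neighbour. Gm26608, 258 bases from Insig1, was called lower with it (-1.55 ± 0.45, adjusted p = 0.0391) but not without replicate 2, 3 or 4 (adjusted p = 0.151, 0.263 and 0.085). Where such genes overlap an exon of a neighbour, as 194 of the 753 do on the opposite strand and 60 on the same strand, the counts of the 2 cannot be told apart with certainty. AC160336.1, Gm20186, Gm12840 and Lncbate10 were chosen for naming after their values were seen.

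The same stimulus was given to cells with the other 2 LNAs, whose libraries are separate from those of LNA1. There, 603 genes (4.03%) were called in ctrlA cells and 635 (4.25%) in LNA2 cells. Of the LNA1 calls, 452 were also called in the same direction in ctrlA cells, which is 60% of the LNA1 calls and 75% of the ctrlA calls. In LNA2 cells 410 were, 54.4% of the LNA1 calls and 64.6% of the LNA2 calls. No gene was called in opposite directions, 338 genes were called with all 3 LNAs, and 743 of the 753 had the same sign in ctrlA cells and as many in LNA2 cells. Genes called higher in LNA2 cells had a median log2 fold change of 0.80 there, 0.81 in LNA1 cells and 0.75 in ctrlA cells, and those called lower had medians of -0.73, -0.68 and -0.56. For genes called higher in ctrlA cells the medians were 0.94 there, 0.92 in LNA1 and 0.80 in LNA2 cells, and for those called lower -0.70, -0.71 and -0.59.

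By gene, Ucp1 rose by 3.59 ± 0.26 with LNA1, 3.47 with ctrlA and 3.45 with LNA2, and Ramp3 by 3.16, 3.84 and 3.12. The values for Mgp were -2.94, -2.28 and -2.30, for Insig1 -1.01, -0.84 and -0.87, and for Acss2 -0.90, -0.89 and -0.84. Of the 15 largest rises with LNA1, 14 were called in ctrlA and 13 in LNA2 cells. Of the 15 largest falls 9 and 7 were.

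**Figure D4:**
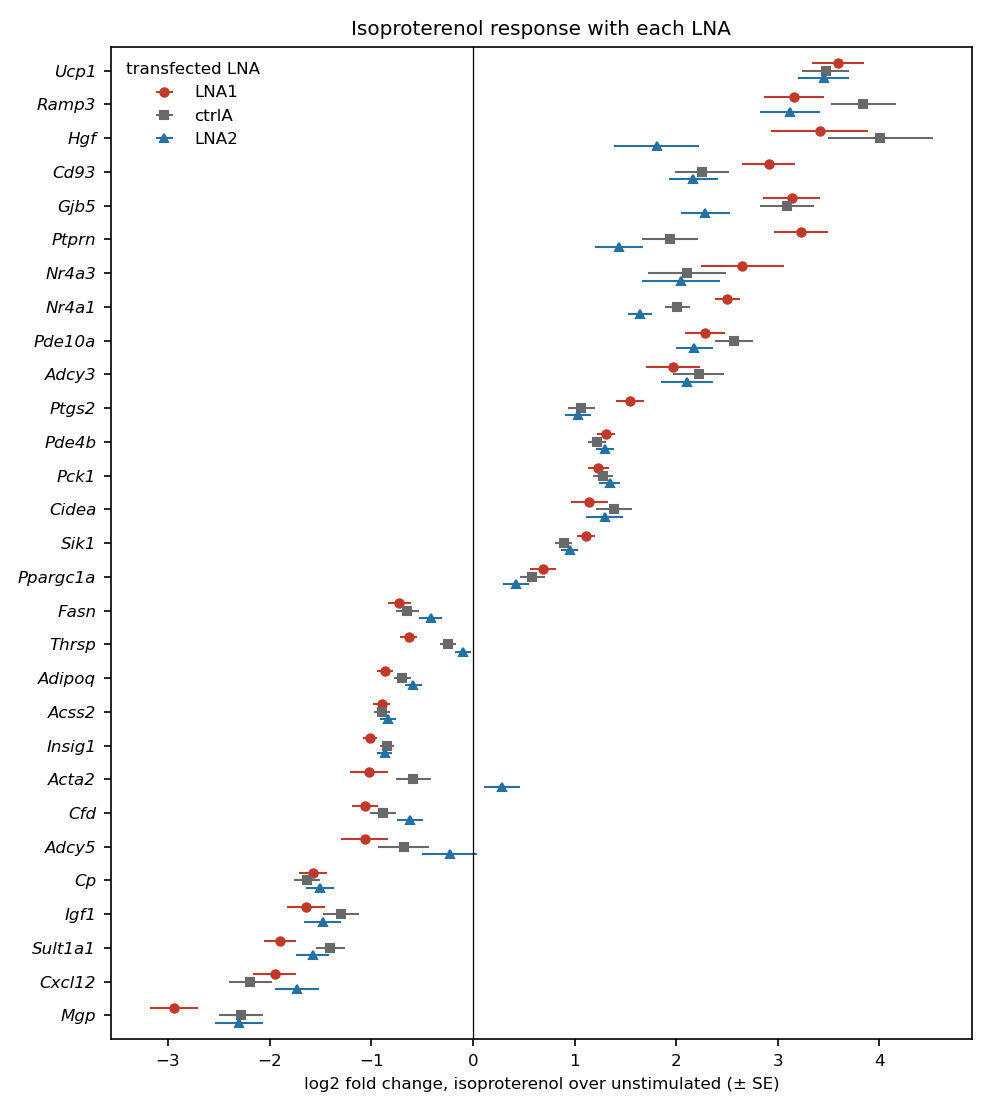
Log2 fold change with isoproterenol (± SE) of 29 genes in LNA1 (red circles), ctrlA (grey squares) and LNA2 cells (blue triangles), with genes called higher in LNA1 cells above and genes called lower below. Ucp1 lies at 3.59, 3.47 and 3.45, and Acta2 at -1.02, -0.59 and 0.29 in the same order of LNAs.

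Whether the response with LNA1 differed from that with another LNA was tested as an interaction in the same edgeR fit. For LNA1 against ctrlA 0 of 14949 genes passed an adjusted p of 0.05, 393 had an unadjusted p under 0.05, and the smallest adjusted p was 1. Against LNA2 0 genes passed, 616 had an unadjusted p under 0.05, and the smallest adjusted p was 0.204. With no filter on low counts the same edgeR test passed 82 genes against ctrlA and 138 against LNA2, and 78 and 130 of these were among the 14949 genes, so that the 0 depends on the filter. DESeq2 called 4 genes in each test. Against LNA2 these were Acta2 and 3 genes that were at 0 in all unstimulated LNA1 libraries (Gm12751, Rps6-ps4 and Gm45234), and against ctrlA those 3 and the pseudogene Gm28437. A count of 0 does not show that the responses were alike, since differences of the size seen below did not pass.

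The smallest p against LNA2 among known genes were those of Acta2 and Nr4a1. Acta2 went from 24.4, 13.6 and 9.76 to 12.6, 8.51 and 3.10 CPM with LNA1 and from 16.4, 9.35 and 6.30 to 21.4, 14.5 and 4.92 CPM with LNA2, a difference of -1.31 ± 0.26 in the log2 fold change (edgeR adjusted p = 0.656). Nr4a1 rose by 2.50 with LNA1 and by 1.65 with LNA2, where it went from 5.53, 7.16 and 8.61 to 17.3, 25.9 and 23.4 CPM (difference 0.86 ± 0.17, adjusted p = 0.656). Ptprn differed by 1.79 ± 0.37 (adjusted p = 0.656), Thrsp, a regulator of lipogenesis, by -0.53 ± 0.12 (adjusted p = 0.78) and the non-coding Gm42927 by 4.03 ± 0.65 (adjusted p = 0.204). None of these passed the correction. Against ctrlA the smallest p belonged to Pgk1-rs7 and to Gm42546, Niban1, Tnfrsf22 and Trp53i13, with differences of -0.62, -1.61, 0.57 and 0.51 for the latter 4 and adjusted p = 1 for all. Tnfrsf22, a decoy receptor for TRAIL, was the only one of these 4 called in LNA1 cells (0.64 ± 0.10, adjusted p = 0.000612), against 0.07 in ctrlA cells.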

How the data were processed

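RNA of 18 libraries of wt1-SAM brown adipocytes was sequenced, 3 for each combination of LNA1, LNA2 or ctrlA with or without isoproterenol. The authors filtered reads by quality with cutadapt, and salmon estimated their abundance over GENCODE M22 transcripts (GRCm38). The deposited values are expected counts per gene, which are whole numbers in the table. Tool versions, the strand setting and the way transcripts were summed to genes are not given in the sources used here, so counts of overlapping genes and near-identical copies are uncertain. Of the 54347 genes listed, 201 had no name. Coordinates are those of GENCODE M21 (also GRCm38), which holds 99.5% of the genes listed, and promoters from RefSeq (GRCm38.p6).

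One edgeR 4.0.16 quasi-likelihood model (R 4.3.3) was fitted to the 6 groups with the replicate number as a block, after filterByExpr (minimum count 10, minimum total 15) and TMM scaling. Errors of log2 fold changes are SE. Genes were called at a Benjamini-Hochberg adjusted p under 0.05 over all 14949 genes and an absolute log2 fold change above 0.5. Differences of responses were interaction contrasts without a fold limit. The replicate numbers were taken as pairs because deviations from the group means of same-number LNA1 libraries correlated (Pearson's r from 0.344 to 0.699, each above the limit of 0.1). Libraries of replicates 3 and 4 also correlated with each other across the groups (0.305 and 0.371), so the numbers mainly separate replicate 2 from the rest. No libraries were identical, and replicates of an LNA1 group differed by more than sampling noise (chi-square per degree of freedom from 4.32 to 177). Intervals and floors (3 counts) cover counting error only.

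Members and gene lists were chosen with earlier results of these data known. The genes named were the 15 largest rises and 15 largest falls with a mean of at least 1 CPM and the same sign in all 3 pairs, up to 4 called members of each list, the 5 smallest p of each difference, Ucp1, Ramp3, Mgp, Gm15551 and Camk2d, and members that a sentence on a list needed. A few of these genes are not reported here. Alternatives were a fit without the block, DESeq2 1.42.0, RLE scaling, no filter, only the groups compared, ribosomal RNA and mitochondrial genes left out, other fold limits and each replicate left out. Tables and plots were made with Python 3.11.15, pandas 2.3.3, scipy 1.17.1 and matplotlib 3.10.9.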

Additional observations from a re-analysis of the deposited data

How the results depend on the processing

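The count of 753 genes changed by isoproterenol in LNA1 cells became 1471 without a fold limit and 290 above an absolute log2 fold change of 1. Without the replicate block it was 105, 76 higher and 29 lower, all of them among the 753, and the calls of 108 of 139 called genes that were followed across settings were lost, none of them changing direction. Leaving out single libraries or all libraries of 1 replicate number gave 446 to 686 genes, the lowest without replicate 2, where 419 were among the 753. Other settings stayed within 1.5 times of the main count, with 723 genes by DESeq2 (691 shared), 760 with RLE scaling, 959 with no filter, 763 without ribosomal RNA and mitochondrial genes and 800 in a fit of the LNA1 groups alone. Of the genes named in the text, DESeq2 did not call Gm49391 and Pgk1-rs7, and without a filter Lipe was not called. For the difference of responses, 0 genes passed against ctrlA and 0 against LNA2, but DESeq2 called 4 and 4, and with no filter 82 and 138 passed, 78 and 130 of them among the genes that pass the filter. The cause was not tested. Without the block 0 passed in either test, and the unadjusted p was under 0.05 for 105 and 113 genes. With replicates left out the count stayed 0 against ctrlA and was 0 to 2 against LNA2 (1 without replicate 3 of the stimulated LNA2 group, 2 without its replicate 4 and 2 without replicate 3 in all groups). The unfiltered log2 fold change of Gm15551 was -1.52 ± 0.75 (edgeR adjusted p = 0.411), -1.70 without the block and from -2.59 to -0.72 with 1 library left out. At 12 or fewer counts per library, depth allows no statement on Gm15551.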

Other observations

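Some called genes outside the lists were named after their values were seen, and values are by edgeR as above. Thbd, the thrombin receptor thrombomodulin, rose from 42.9, 37.3 and 36.4 to 131, 166 and 177 CPM (log2 fold change 2.02 ± 0.12, adjusted p = 2.48e-08). The vitamin D receptor gene Vdr rose from 18.1, 23.7 and 21.5 to 58.6, 97.3 and 61.1 CPM (1.76 ± 0.15, adjusted p = 1.12e-06). Prkg2, a cGMP-dependent protein kinase, rose from 3.56, 2.40 and 1.22 to 19.6, 10.1 and 8.74 CPM (2.39 ± 0.29, adjusted p = 4.99e-05). The stimulated libraries of these 3 genes were all above the unstimulated ones.

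The growth hormone receptor gene Ghr fell from 174, 134 and 111 to 96.5, 53.4 and 59.6 CPM (-1.02 ± 0.13, adjusted p = 8.79e-05), while Socs2, an inhibitor of growth hormone signalling, rose from 51.4, 37.3 and 36.5 to 103, 73.6 and 99.5 CPM (1.15 ± 0.14, adjusted p = 4.35e-05). Neither gene overlapped between groups. A few receptor genes that fell were also picked by eye, with no count of such receptors. Hcar1, the lactate receptor, fell from 51.1, 75.9 and 80.9 to 24.5, 49.6 and 39.6 CPM (-0.89 ± 0.10, adjusted p = 2.37e-05). Ffar2, a receptor of short-chain fatty acids, fell from 57.0, 66.6 and 72.3 to 34.9, 47.4 and 41.2 CPM (-0.67 ± 0.08, adjusted p = 4.83e-05), and Adora1, an adenosine receptor, by 0.71 ± 0.09 on the log2 scale (adjusted p = 6.33e-05). These 3 receptors are known to oppose adenylyl cyclase. The melanocortin receptor genes Mc2r (-0.72 ± 0.13, adjusted p = 0.00159) and Mc5r (-0.97 ± 0.19, adjusted p = 0.00358), whose products stimulate it, were called lower too. Mc2r lost its call without replicate 4 (adjusted p = 0.0721) and Mc5r without replicate 2 (adjusted p = 0.0694).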
